A study of Homo sapiens with 4 samples.

Results

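The ATF4 and unfolded protein response genes are the 40 genes of the integrated stress response and of the ATF6 and XBP1 programmes that were looked up by symbol among the 28278 rows of the deposited count table. All 40 were found and all 40 passed the low-count filter, out of 17271 genes tested. They were divided by known function into an ATF4-CHOP arm of 22 genes and a chaperone and degradation arm of 18 genes. Heat shock and J-domain proteins were left out of the list. The samples were 4 RNA sequencing libraries of A549, a human lung adenocarcinoma cell line. Of these, 2 came from a stable line carrying a lentiviral control construct, whose genotype is labelled WT, and 2 from a stable line carrying a lentiviral CBX7 construct, labelled CBX7 overexpression. Both lines were grown alike in serum-containing medium, and no stress-inducing agent is named in the labels. Each group was 1 stable line, and no untransduced cells were analysed, so an effect of CBX7 and a difference between the lines cannot be told apart. CBX7 is a chromobox subunit of Polycomb repressive complex 1, a chromatin repressor.

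Cells that meet unfolded protein in the endoplasmic reticulum (ER), lack of amino acids, double-stranded RNA or lack of heme phosphorylate the translation factor eIF2 through a set of kinases. General translation then slows, while the mRNA of the transcription factor ATF4 is translated more, and ATF4 with its partners switches on CHOP (the product of DDIT3), amino acid synthesis and a phosphatase subunit that reverses the signal. ER stress also activates ATF6 and IRE1, the latter by splicing XBP1 mRNA, and both raise chaperones and the machinery that degrades misfolded ER proteins. Synthesis of ATF4 protein and XBP1 splicing are controlled after transcription, so a gene-level read count reports neither directly.

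Library totals were 69877585 to 90765502 estimated counts. CBX7 averaged 8.37 ± 0.521 CPM in control libraries and 18.1 ± 1.31 CPM under overexpression (log2 fold change 1.11, adjusted p = 0.000141). CPM is the read count normalised to library size, with the library total scaled by its TMM factor, and all CPM means below are ± SD with n = 2 libraries. Fold changes are CBX7 overexpression over control. Adjusted p-values for genes come from edgeR's quasi-likelihood test with Benjamini-Hochberg adjustment over all 17271 genes, and a gene is called at an adjusted p under 0.05. Separate cultures are not named for the replicates, so the p-values reflect spread among these 4 libraries alone, which may be technical. The A549 markers KRT8, KRT18, ALDH1A1 and AKR1B10 were abundant, at 4701 to 10775 CPM on average, while EPCAM and KRT19 were under 2 CPM. The summed level of 10 epithelial and A549 markers was 28398 to 36514 CPM, against at most 7.95 CPM for each of the leukocyte, fibroblast and endothelial lists. The alveolar type II markers SFTPA1, SFTPB, SFTPC, NKX2-1 and NAPSA summed to 0.766 to 1.84 CPM, so that these markers were close to absent in both groups. CDKN2A and CDKN2B, whose locus is deleted in A549, summed to at most 0.0733 CPM. Interferon-stimulated genes moved with the groups: 10 of them summed to 8009 and 6830 CPM in the controls and to 25.0 and 41.2 CPM with CBX7. Their part in the results that follow was not tested.

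Short stretches of promoter show how the arms differ in known response elements. The windows searched run from 250 bases before to 50 after each RefSeq start (GRCh38.p14), on both strands, and 36 of the 40 members have at least 1 window. EIF4EBP1, PSPH, SHMT2 and PDIA3 have none. The C/EBP-ATF response element bound by ATF4 dimers was searched as TGATG, any 1 base and AA. The ER stress element bound by ATF6 with NF-Y was searched as CCAAT and CCACG with 9 bases between them, and its second form as ATTGG and CCACG with 1 base between them. Capitals mark the matched element, and each stretch lies before the start to which its window belongs. Stretches are cut to 30 bases or fewer where GENCODE v29 places an exon of a longer transcript over them.
PPP1R15B, C/EBP-ATF element (chr1:204412016-204412064, minus strand): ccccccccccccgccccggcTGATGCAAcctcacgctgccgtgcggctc
CEBPG, C/EBP-ATF element (chr19:33374051-33374099, plus strand): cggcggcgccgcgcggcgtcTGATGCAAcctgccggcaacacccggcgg
ASNS, C/EBP-ATF element (chr7:97872458-97872487, minus strand): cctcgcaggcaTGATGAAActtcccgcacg
CHAC1, C/EBP-ATF element read on the opposite strand (chr15:40953251-40953280, plus strand): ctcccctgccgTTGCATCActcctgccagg
HERPUD1, C/EBP-ATF element read on the opposite strand (chr16:56931945-56931993, plus strand): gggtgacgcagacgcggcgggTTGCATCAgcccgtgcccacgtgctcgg
HERPUD1, ER stress element of the second form (chr16:56932016-56932044, plus strand): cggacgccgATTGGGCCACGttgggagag
HYOU1, ER stress element of the second form, opposite strand (chr11:119057254-119057304, minus strand): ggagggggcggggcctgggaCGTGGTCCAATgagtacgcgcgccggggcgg
SDF2L1, ER stress element of the second form, opposite strand (chr22:21642094-21642144, plus strand): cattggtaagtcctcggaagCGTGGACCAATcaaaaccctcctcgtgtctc
CALR, ER stress element, opposite strand (chr19:12938364-12938422, plus strand): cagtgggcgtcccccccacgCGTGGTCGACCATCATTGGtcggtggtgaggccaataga
CRELD2, ER stress element, opposite strand (chr22:49918534-49918592, plus strand): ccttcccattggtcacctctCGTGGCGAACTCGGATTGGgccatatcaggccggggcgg
XBP1, ER stress element (chr22:28800598-28800626, minus strand): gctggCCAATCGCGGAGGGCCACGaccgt

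Either form of the ER stress element was present in 8 of 17 members of the chaperone and degradation arm with a window (CALR, CANX, CRELD2, PDIA6, XBP1, HERPUD1, HYOU1 and SDF2L1) and in 0 of 19 of the ATF4-CHOP arm. Among 12759 tested genes with a window the share was 0.259%. HYOU1 carried the second form in 2 places, and 1 of them overlaps a match to the unfolded protein response element TGACGTGG, which 1.13% of tested genes hold. The C/EBP-ATF element was present in 4 of 19 members of the ATF4-CHOP arm (ASNS, CEBPG, CHAC1 and PPP1R15B) and in 2 of 17 of the other arm (HERPUD1 and CREB3L2), against 2.96% of tested genes. Most members are listed because they are known targets of these factors, so the shares describe the list and are no independent evidence. Of the 6 members with a C/EBP-ATF match, the 4 of the ATF4-CHOP arm were called lower with CBX7, as were 14 of that arm's 19 with a window, while HERPUD1 was not called and CREB3L2 was called higher. Of the 8 genes with an ER stress element 1 (XBP1) was called lower and 1 (SDF2L1) higher, the latter near the threshold (adjusted p = 0.0373). Over all tested genes 24.4% were called, 13.9% lower and 10.5% higher. Whether the elements had a part in these calls was not tested.

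The arms differed in how many members fell. In the ATF4-CHOP arm 14 of 22 members were lower with CBX7 and 0 were higher, with 7 lower by 2-fold or more. In the chaperone and degradation arm 2 of 18 were lower and 3 higher, all by less than 2-fold. Over all tested genes 24.4% were called, 13.9% lower and 10.5% higher, while 5.36% were lower and 2.11% higher by 2-fold or more. The share called lower was thus 63.6% in the ATF4-CHOP arm and 11.1% in the other. The median log2 fold change was -0.44 in the ATF4-CHOP arm, -0.11 in the chaperone and degradation arm and -0.00015 over all tested genes. No test was made of the difference between the arms, and the members were chosen with earlier results of these data known. Without the regulators (kinases, sensors and transcription factors), 10 of 15 targets in the ATF4-CHOP arm were lower and 0 higher, against 0 of 14 lower and 2 higher among the chaperones and degradation factors. Scaling by library totals, which turned the counts over all genes from 2399 lower and 1809 higher into 2033 lower and 2487 higher, left 14 lower and 0 higher in the ATF4-CHOP arm and gave 2 lower and 4 higher in the other. In the chaperone and degradation arm 1 gene was higher without control library 1 (SEL1L, which is not among the 3), without CBX7 library 1 (EDEM2) or without CBX7 library 2 (CREB3L2), while the lower genes of the ATF4-CHOP arm numbered 10 to 13 with any 1 library left out.

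**Figure D1:**
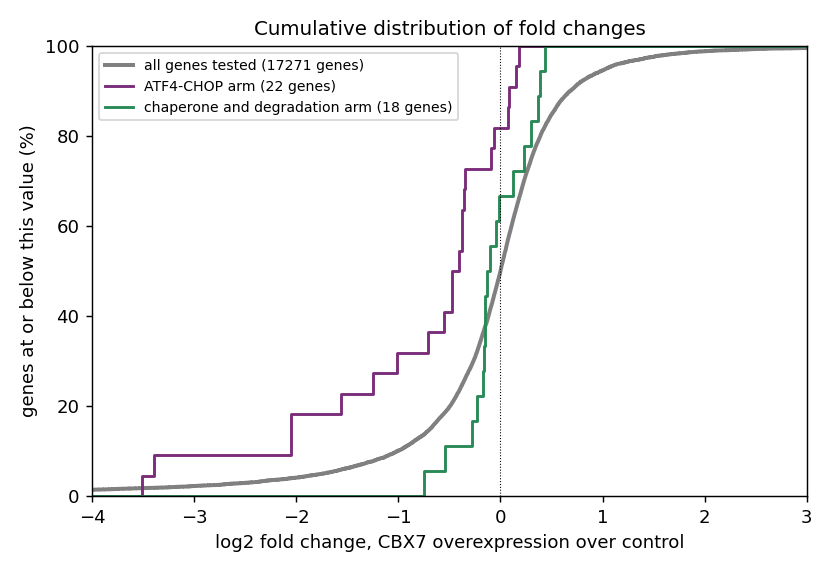
Cumulative share of genes (y axis, %) at or below each log2 fold change of CBX7 overexpression over control (x axis, clipped at -4 and 3), for all 17271 tested genes (grey), the 22 genes of the ATF4-CHOP arm (purple) and the 18 of the chaperone and degradation arm (green). From -3.51 upward the purple line lies to the left of the grey one, with a median of -0.44, while the green line has a median of -0.11 and runs from -0.75 to 0.43.

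The transcription factors were led by DDIT3, which encodes CHOP, a C/EBP-family factor that promotes cell death under lasting stress. DDIT3 (chromosome 12, 57516588 to 57520517, GRCh38) had 75.9 and 67.6 CPM in control libraries 1 and 2 and 5.89 and 6.72 CPM in CBX7 libraries 1 and 2. It fell 11.4-fold (log2 fold change -3.51, SE 0.137, adjusted p = 1.68e-10), the largest fall among the 40, and the groups lay far apart. In RNA from whole cultures, fewer cells with a transcript and fewer transcripts per cell cannot be told apart. The span of DDIT3 overlaps that of MARS1, a methionyl-tRNA synthetase whose level moved much less, from 249 ± 20.1 to 193 ± 2.08 CPM. How reads shared between overlapping genes were counted is not given in the sources used here. CEBPB, a dimer partner of ATF4 and CHOP, fell from 88.1 and 76.5 CPM to 34.9 and 34.6 CPM (log2 fold change -1.25, SE 0.114, adjusted p = 2.38e-06).

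ATF4 itself changed far less than its target DDIT3. ATF4 (chromosome 22, 39520559 to 39522686) had 467 and 483 CPM in the controls and 350 and 390 CPM with CBX7, without overlap between the groups. Its fall of 1.28-fold was called (log2 fold change -0.36, SE 0.0970, adjusted p = 0.0148) but missed the threshold when control library 2 (adjusted p = 0.0646) or CBX7 library 1 (0.186) was left out. CEBPG, another bZIP partner of ATF4, went from 112 and 107 CPM to 80.4 and 85.5 CPM (log2 fold change -0.40, adjusted p = 0.0120). That call was lost without CBX7 library 1 (0.149) or CBX7 library 2 (0.0626). ATF5, a related factor that is also regulated by translation, was at 17.8 and 21.3 CPM against 13.5 and 16.6 CPM and was not called (log2 fold change -0.38, adjusted p = 0.103). Its span overlaps those of NUP62 and IL4I1.

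XBP1 and CREB3L2 are the factors of the secretory programme in the list. XBP1 (chromosome 22, 28794560 to 28800569), whose spliced form drives degradation genes, went from 178 and 153 CPM to 108 and 119 CPM. It fell 1.46-fold (log2 fold change -0.55, SE 0.109, adjusted p = 0.00238), and its call held in all 11 alternatives. The spliced and unspliced forms cannot be told apart in a gene-level count. CREB3L2, an ER-anchored factor released by proteolysis like ATF6, was at 34.8 and 41.4 CPM in the controls and 54.1 and 45.2 CPM with CBX7. It rose by a log2 fold change of 0.38 (adjusted p = 0.0474), a call lost without control library 1 (0.218) or CBX7 library 1 (0.415), where the log2 fold change was 0.27 and 0.25.

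**Figure D2:**
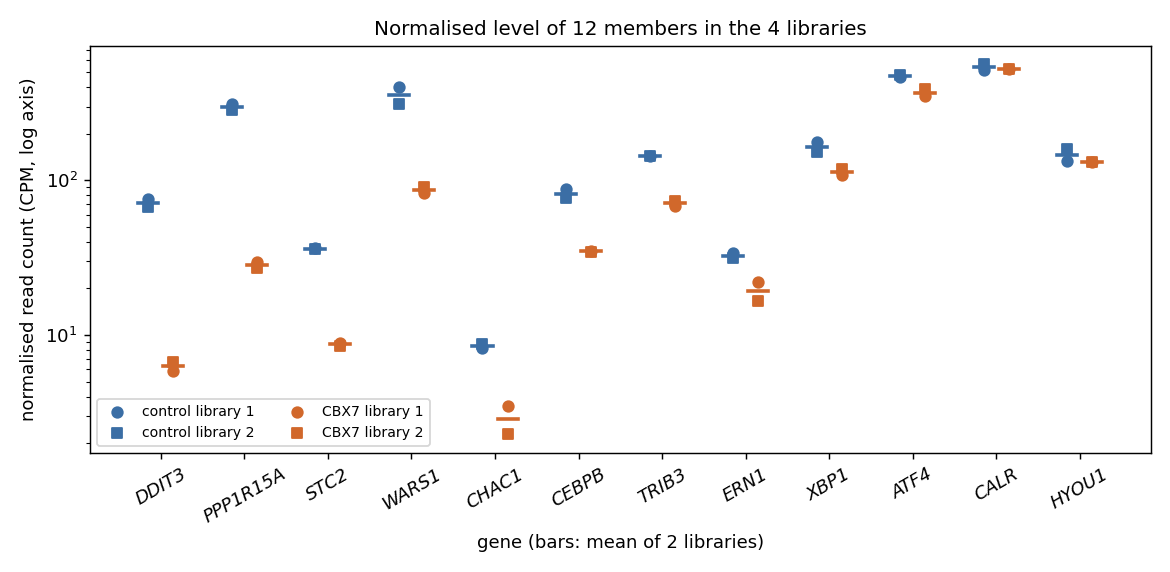
Normalised read count (CPM, log axis) of 12 members in control libraries (blue) and CBX7 libraries (orange), with circles for library 1, squares for library 2 and bars for the mean of the 2 libraries. DDIT3 drops from 71.8 to 6.30 CPM on average and PPP1R15A from 297 to 28.3 CPM, ATF4 moves from 475 to 370 CPM, and CALR stays at 540 and 525 CPM.

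Of the kinases and sensors 1 of 4 was called, near the 24.4% of all tested genes. ERN1 encodes IRE1, the kinase and RNase that splices XBP1. ERN1 (chromosome 17, 64039142 to 64130144) stood at 33.7 and 31.5 CPM in the controls and 22.0 and 16.7 CPM with CBX7. It fell 1.69-fold (log2 fold change -0.75, SE 0.145, adjusted p = 0.00181), and both CBX7 libraries lay below both controls. EIF2AK3, which encodes the ER-resident eIF2 kinase PERK, had 36.1 and 27.2 CPM in the controls and 27.5 and 22.0 CPM with CBX7. The groups overlapped, and it was not called (log2 fold change -0.35, 95% interval -0.69 to -0.02, adjusted p = 0.118), although it passed without control library 2 (0.0427). EIF2AK4, the amino acid-sensing kinase GCN2, was at 59.4 and 52.6 CPM against 60.3 and 57.4 CPM, with a 95% interval of -0.17 to 0.31. ATF6, the membrane-bound factor that is cut free under ER stress, was at 68.8 and 66.2 CPM against 60.1 and 55.1 CPM (log2 fold change -0.23, interval -0.46 to 0.00, adjusted p = 0.148). EIF2AK3, EIF2AK4 and ATF6 were thus without a called difference in mRNA.

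Among the genes of translation feedback, the mRNA of PPP1R15A fell sharply. Read counts do not report eIF2 phosphorylation itself. PPP1R15A encodes GADD34, the inducible subunit that brings phosphatase 1 to eIF2 and so restores translation. PPP1R15A (chromosome 19, 48872421 to 48876058) had 310.0 and 285 CPM in the controls and 29.5 and 27.2 CPM with CBX7. The fall was 10.5-fold (log2 fold change -3.39, SE 0.109, adjusted p = 2.19e-11), and by p-value the gene ranked 43 of 17271. PPP1R15B, the constitutive counterpart of the same phosphatase, went from 139 and 125 CPM to 90.3 and 89.0 CPM. It fell 1.47-fold (log2 fold change -0.55, SE 0.105, adjusted p = 0.00161), and the groups did not overlap. EIF4EBP1, which holds back cap-dependent translation, was at 76.3 and 99.2 CPM against 87.3 and 99.0 CPM, with overlapping groups (log2 fold change 0.09, adjusted p = 0.698).

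All 5 stress outputs of ATF4 and CHOP were lower with CBX7, against 13.9% of all tested genes. None had overlapping groups, but neither did 62.8% of all tested genes. STC2, a secreted glycoprotein induced by PERK signalling, went from 36.7 and 35.8 CPM to 8.90 and 8.52 CPM, a 4.16-fold fall (log2 fold change -2.06, SE 0.133, adjusted p = 5.89e-08). CHAC1, which breaks down glutathione, went from 8.20 and 8.71 CPM to 3.45 and 2.28 CPM (log2 fold change -1.56, SE 0.248, adjusted p = 0.000411). It was the least abundant of the 40 in reads, with 206 to 706 counts per library, and its 95% interval of -2.09 to -1.03 was the widest. TRIB3, a pseudokinase that restrains ATF4 and AKT, had 143 CPM in both controls and 68.4 and 73.4 CPM with CBX7 (log2 fold change -1.01, SE 0.103, adjusted p = 7.08e-06).

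The other outputs changed less. VLDLR, the very low density lipoprotein receptor, went from 42.4 and 35.6 CPM to 25.9 and 21.7 CPM (log2 fold change -0.71, adjusted p = 0.00178). DDIT4, which encodes REDD1, an inhibitor of mTORC1, went from 299 and 303 CPM to 220 and 212 CPM (log2 fold change -0.48, adjusted p = 0.00159). The calls of all 5 outputs held in the 11 alternatives.

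**Figure D3:**
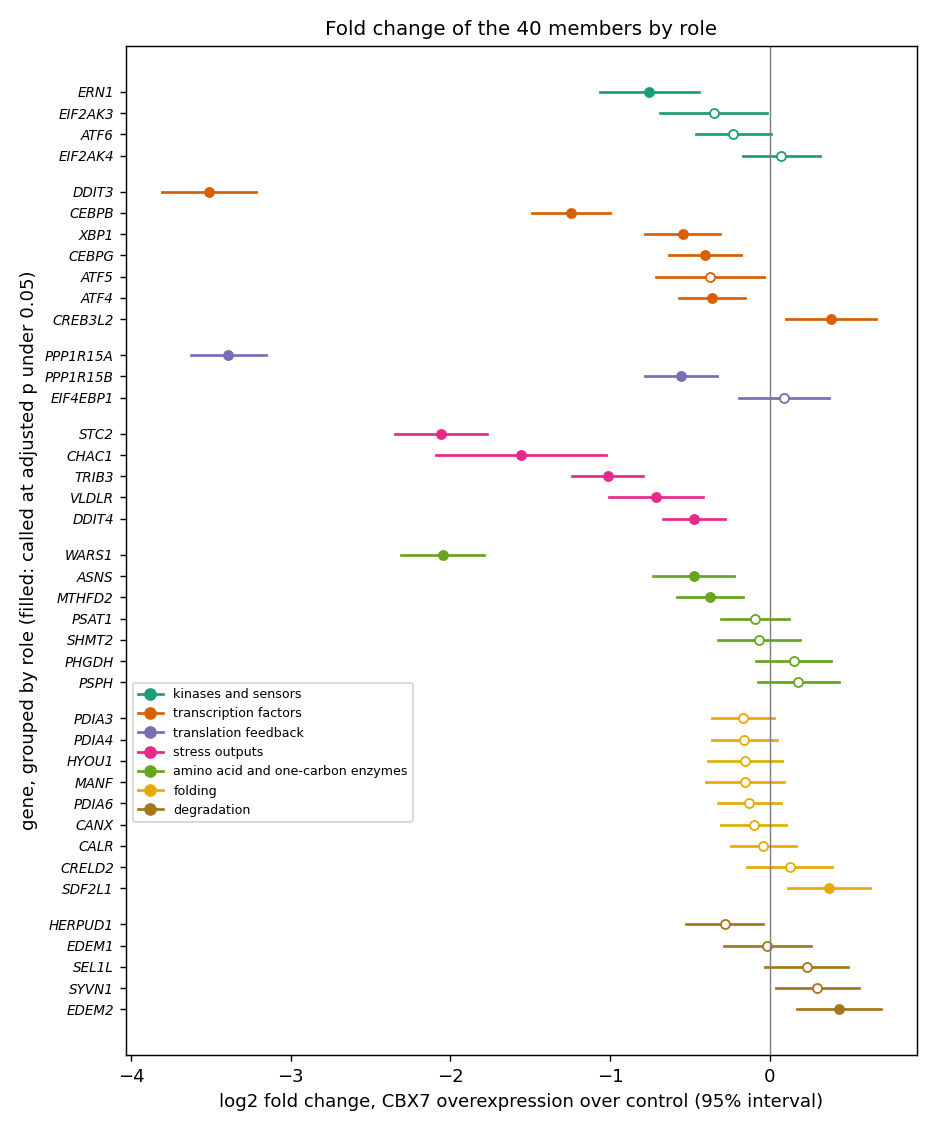
Log2 fold change of CBX7 overexpression over control (x axis) for each of the 40 genes (y axis), grouped and coloured by role, with filled points for called genes and bars for 95% intervals from the edgeR fit. All 5 stress outputs are filled and left of 0, while 8 of the 9 folding genes are open and lie between -0.17 and 0.12. Over all tested genes 24.4% were called.

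Amino acid and one-carbon enzymes were mixed. Of 7 members 3 were lower and 4 were not called, where 13.9% of all tested genes were called lower. WARS1, the tryptophanyl-tRNA synthetase, had 404 and 313 CPM in the controls and 82.8 and 90.5 CPM with CBX7, a 4.14-fold fall (log2 fold change -2.05, SE 0.122, adjusted p = 2.21e-08). WARS1 is known to be induced by interferon as well as by ATF4. A match to the core of the interferon-stimulated response element, searched as GAAA and GAAA with 2 bases between them, lies before 1 of its starts (chr14:100375383-100375412, minus strand), a motif that 4.24% of tested genes hold. Among the members ATF5, which was not called, holds it as well. Whether interferon or ATF4 had a part in the fall of WARS1 was not tested.
WARS1: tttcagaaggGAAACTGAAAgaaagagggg

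The other called enzymes, ASNS and MTHFD2, moved by less than WARS1. ASNS, asparagine synthetase, went from 112 and 118 CPM to 74.3 and 90.7 CPM (log2 fold change -0.48, SE 0.117, adjusted p = 0.00886). The call was lost without control library 2 (0.0514) or CBX7 library 1 (0.177). Its span overlaps the read-through gene CZ1P-ASNS, which was counted unevenly, with 1232 and 286 counts in control libraries against 460 and 188 in CBX7 libraries. MTHFD2, a mitochondrial folate enzyme, went from 314 and 282 CPM to 224 and 235 CPM (log2 fold change -0.38, SE 0.0950, adjusted p = 0.0107). Its call was lost without control library 1 (0.0765) or CBX7 library 1 (0.112).

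The serine synthesis enzymes showed no called difference. PHGDH, the first enzyme of the pathway, was at 68.9 and 76.8 CPM against 79.1 and 82.5 CPM (95% interval of the log2 fold change -0.09 to 0.39). PSAT1, the transaminase that follows it, was at 198 and 183 CPM against 169 and 188 CPM, with overlapping groups (interval -0.31 to 0.12). PSPH, the phosphatase that ends the pathway, was at 32.6 and 32.2 CPM against 34.8 and 38.6 CPM (interval -0.08 to 0.43). SHMT2, which turns serine into glycine in mitochondria, was at 109 and 139 CPM against 119 and 118 CPM (interval -0.32 to 0.19). These intervals leave out a change of 2-fold or more either way.

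Of the 9 ER folding genes 8 were not called, where 24.4% of all tested genes were called. CALR and CANX encode the lectin chaperones calreticulin and calnexin. CALR had 518 and 563 CPM in the controls and 527 and 523 CPM with CBX7, with overlapping groups (log2 fold change -0.04, 95% interval -0.25 to 0.16). CANX had 1062 and 999 CPM against 995 and 927 CPM (log2 fold change -0.10, interval -0.30 to 0.10). The disulfide isomerases PDIA3, PDIA4 and PDIA6 had log2 fold changes of -0.17, -0.16 and -0.13. PDIA3 was at 349 CPM in both controls and 309 and 312 CPM with CBX7, so that its groups did not overlap although it was not called (adjusted p = 0.205). HYOU1, a large ER chaperone, was at 134 and 159 CPM against 131 and 132 CPM (interval -0.39 to 0.08).

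Among the smaller folding factors, SDF2L1, a component of ER chaperone complexes, had 24.7 and 24.9 CPM in the controls and 33.0 and 31.0 CPM with CBX7. It rose 1.29-fold (adjusted p = 0.0373, log2 fold change 0.37, SE 0.120), but the call was lost when any 1 library was left out, with adjusted p of 0.0842 and 0.0620 without control libraries 1 and 2 and 0.286 and 0.112 without CBX7 libraries 1 and 2. MANF, a secreted protective factor, was at 51.9 and 55.6 CPM against 45.7 and 51.0 CPM. CRELD2, a secreted ER stress protein, was at 30.9 and 31.8 CPM against 31.5 and 36.8 CPM. Over the 8 folding genes without a call, the 95% intervals of the log2 fold change ran from -0.40 at the lowest to 0.39 at the highest.

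Degradation factors moved in both directions by small amounts. EDEM2, a mannosidase-like protein that marks glycoproteins for disposal, had 48.7 and 59.3 CPM in the controls and 69.6 and 76.1 CPM with CBX7. It rose 1.35-fold (log2 fold change 0.43, SE 0.121, adjusted p = 0.0186), the largest rise of the 40, and lost its call without control library 1 (0.0844) or CBX7 library 2 (0.152). SEL1L and SYVN1 form the core of the ER ubiquitin ligase. SEL1L was at 78.4 and 62.8 CPM against 83.3 and 82.3 CPM (log2 fold change 0.23, adjusted p = 0.198), and it passed without control library 1 (0.0212). SYVN1 was at 28.9 and 32.3 CPM against 36.5 and 38.6 CPM (log2 fold change 0.30, adjusted p = 0.0924), and its span overlaps that of MRPL49.

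HERPUD1, a membrane protein of the same ligase complex that carries both kinds of element in its promoter, was at 92.3 and 83.2 CPM against 68.0 and 76.2 CPM. It was not called (log2 fold change -0.28, 95% interval -0.53 to -0.04, adjusted p = 0.0856), but passed with DESeq2's Wald test (0.0483) and when only genes with a mean count of 50 or more were tested (0.0481). EDEM1, a relative of EDEM2, was at 84.2 and 81.4 CPM against 92.3 and 71.3 CPM, with the CBX7 libraries on either side of the controls (interval -0.29 to 0.26).

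**Figure D4:**
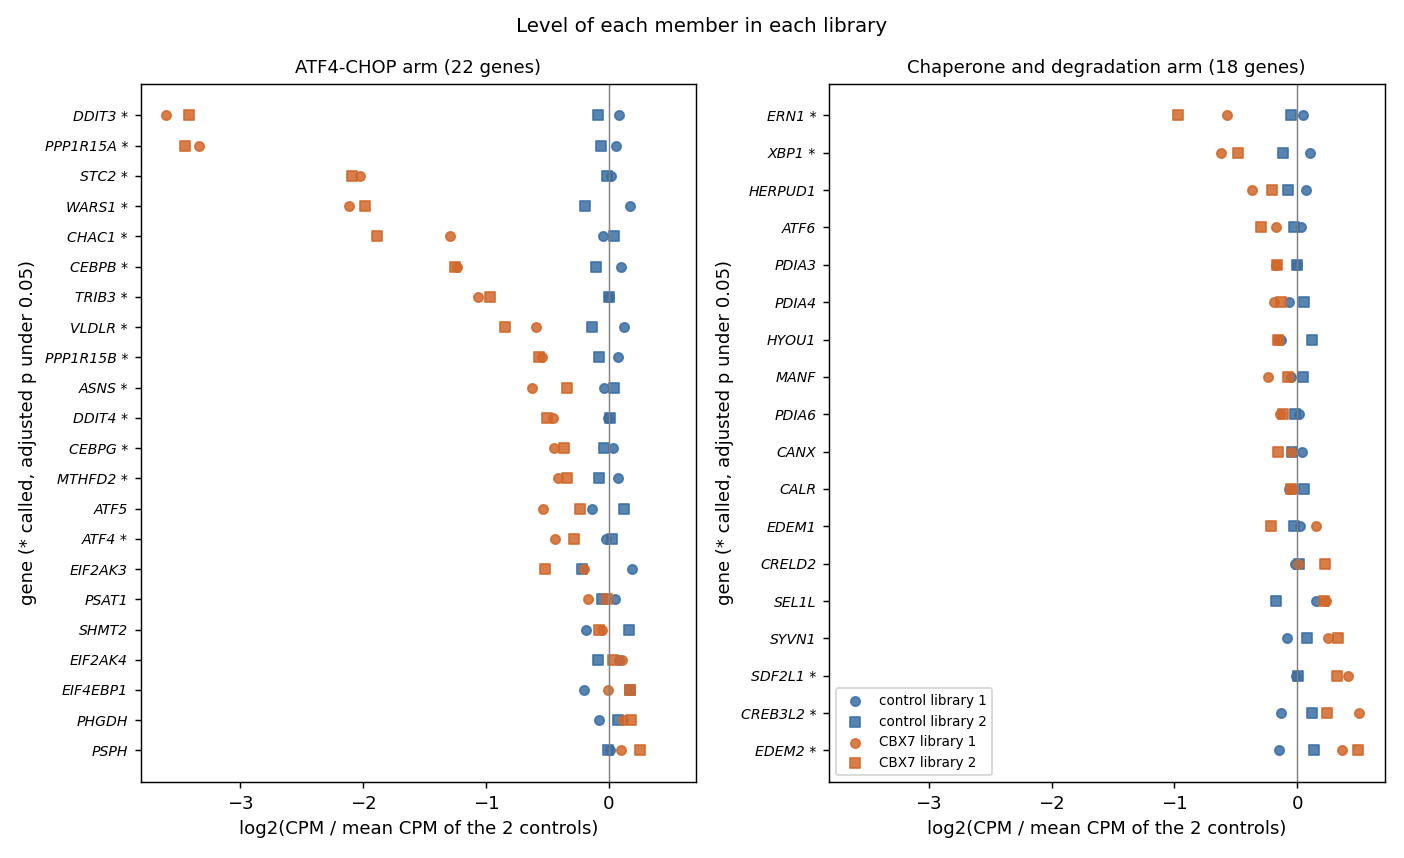
Level of each member in each library as log2 of its CPM over the mean CPM of the 2 controls (x axis), with genes of the ATF4-CHOP arm on the left and of the chaperone and degradation arm on the right (y axis, asterisk for called genes); blue is control, orange is CBX7 overexpression, circles are library 1 and squares library 2. The orange points of DDIT3 and PPP1R15A lie beyond -3, and on the right no orange point lies below -1.

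Some small differences were not called although the groups did not overlap. The groups did not overlap in 32 of the 40 genes, against 62.8% of all tested genes, in 17 of 22 of the ATF4-CHOP arm and in 15 of 18 of the other arm. In the ATF4-CHOP arm, 10 of the 14 lower genes were called under all 11 alternatives: DDIT3, PPP1R15A, STC2, WARS1, CHAC1, CEBPB, TRIB3, VLDLR, PPP1R15B and DDIT4. In the chaperone and degradation arm, ERN1 and XBP1 were, and 0 of the 3 higher genes.

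A list of 65 further genes of these pathways was present in full in the table. Of the 64 tested, 12 were lower and 3 higher, so that 23.4% were called, near the 24.4% of all tested genes. The shares were 18.8% lower and 4.69% higher, against 13.9% and 10.5% of all tested genes, and the median log2 fold change was -0.03. ATF3, a stress-induced bZIP factor that acts with ATF4 and CHOP, had 250 and 208 CPM in the controls and 10.1 CPM in both CBX7 libraries (log2 fold change -4.50, adjusted p = 7.28e-12). EIF2AK2, which encodes the double-stranded RNA-activated eIF2 kinase PKR and is itself induced by interferon, went from 639 and 544 CPM to 131 and 129 CPM (log2 fold change -2.19, adjusted p = 2.00e-09). The other lower genes were SESN2, TRAF2, KLHL24, EIF2S2, CREB3 and the tRNA synthetase genes GARS1, YARS1, TARS1, MARS1 and SARS1, with log2 fold changes of -1.25 to -0.33.

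The 3 higher genes of that list were CBS, NUPR1 and PYCR1. CBS, which makes cystathionine from homocysteine, rose from 3.29 and 3.46 CPM to 9.83 and 14.6 CPM (log2 fold change 1.86, adjusted p = 4.05e-05), with the caveat that reads may be shared with its near-identical copy CBSL. NUPR1, a small stress-induced chromatin protein, rose from 3.59 and 2.96 CPM to 7.28 and 12.5 CPM (log2 fold change 1.59, adjusted p = 0.000551). PYCR1, of proline synthesis, rose by a log2 fold change of 0.45 (adjusted p = 0.00893).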

How the data were processed

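The submitters' processing notes name build hg38, StringTie 2.2.1, HISAT2 2.2.1 and DESeq2, without a role for any. The deposited values are treated as estimated counts per gene symbol and library. All were whole, so rounding changed none. Strandedness and annotation: not given in the sources used here. After filterByExpr, genes were scaled by TMM over the tested genes and tested with edgeR 4.0.16 (robust quasi-likelihood, group as the only term, R 4.3.3) on all 4 libraries. SE and 95% intervals were obtained from each F statistic and the fitted change. Alternatives were RLE factors, library totals, no filter, a mean count of 50 or more, DESeq2 1.42.0, limma-voom (limma 3.58.1), a replicate block, and each library left out. On counts simulated for this comparison over 16609 genes, edgeR recovered 86% of genes changed by 1 on the log2 scale and 95% of those changed by 2. Only 100 genes were changed at each size, as many up as down, all above 1 CPM in the controls. Their variance followed the trend over all genes, without differences from gene to gene. These rates therefore need not hold for the real libraries. Every member is named. Of the further pathway genes, those called with the 4 largest changes are given with values by rule, and the other called ones by name. The members and lists were chosen with earlier results of these data known. Each library was kept as its own replicate. Within groups, counts varied beyond sampling error (chi-square over degrees of freedom 57.6 and 44.9). That spread may be technical and does not show that the libraries are separate cultures. Promoter sequences and gene positions come from RefSeq tables of GRCh38.p14. Of 53 member windows, 46 matched a GENCODE v29 transcript of the gene on the same strand and 0 on the reverse strand.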

Additional observations from a re-analysis of the deposited data

How the results depend on the processing

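In the ATF4-CHOP arm the number of lower genes was 14 or 15 with all 4 libraries and 10 to 13 with 1 library left out, and 0 genes were higher in each of the 11 alternatives. In the chaperone and degradation arm 2 or 3 genes were lower in all 11. The number of higher genes in that arm was 3 or 4 with all libraries but 1 to 2 with 1 left out, where the lone library is assumed to vary like the other group. Over all genes, 1021 to 1790 were higher with 1 library left out. Same-numbered libraries correlated by 0.028 in their deviations over the tested genes, which does not settle whether the numbers pair them. TXNDC5, a single gene with a large difference between library numbers, had 247 and 47.9 CPM in control libraries 1 and 2. In CBX7 libraries 1 and 2 it had 251 and 57.2 CPM, but a single gene does not speak for the others. The replicate block gave 15 lower genes in the ATF4-CHOP arm, as EIF2AK3 passed (adjusted p = 0.0395). It gave 2 lower and 3 higher genes in the other arm, with 2503 lower and 2100 higher over all genes. SYVN1 passed with library totals (0.0402). The sign turned in 5 genes, none of them called with all libraries in the edgeR fit. With 1 library left out, log2 fold changes ran from -0.23 to 0.12 for SHMT2, from -0.0060 to 0.17 for EIF2AK4, from -0.087 to 0.30 for EIF4EBP1, from -0.21 to 0.17 for EDEM1 and from -0.098 to 0.027 for CALR, and library totals gave 0.051 for EDEM1 and 0.025 for CALR. The cause of these changes was not tested. With 2 libraries a group, changes of the size seen in ATF4 or SDF2L1 sat near the limit of what could be called.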
